A study of Saccharomyces cerevisiae with 4 samples.

Results

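The genes described here encode the enzymes of glycolysis, alcoholic fermentation, the pentose phosphate pathway and the branches to glycerol and acetate in budding yeast, Saccharomyces cerevisiae. They were listed by systematic name, from hexokinase to alcohol dehydrogenase 1, without the sugar transporters. No measured value entered that rule, though the list was made with earlier results of these data known. Of 33 listed genes, 30 had a row among the 6030 annotated transcripts of the count files. HXK1, GLK1 and TKL2 were not analysed here. All 30 passed the filter on low counts and entered the test across 5707 transcripts.

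Glycolysis turns glucose into pyruvate in the cytosol, and in growing yeast most of that pyruvate goes on to ethanol even when oxygen is present. Its genes are among the most strongly transcribed in the genome, and the transcription factors Gcr1, Gcr2, Rap1 and Tye7 act at many of their promoters. The pentose phosphate pathway branches off at glucose 6-phosphate, makes NADPH in its oxidative arm and interconverts sugars in its nonoxidative arm. Several steps are served by isoenzymes, which are paralogous genes that encode near-identical or related enzymes and are transcribed to different degrees.

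All 4 libraries came from the yeast strain Y40343 Ssl2-FRB::kanMX6, grown in YPD, a rich glucose medium, at 30 °C from an OD600 of 0.1 to 0.8. RNA made during 6 min with 5 mM 4-thiouracil, a uracil analogue that is taken up into new transcripts, was purified and sequenced. Ssl2 belongs to TFIIH, which opens promoter DNA so that RNA polymerase II can start, and its FRB tag lets rapamycin tether it to an anchor protein that carries it out of the nucleus. The 2 no rapa libraries had no rapamycin and the 2 with rapa libraries had it, at a dose and for a time that the labels do not give. Whether the replicates came from separate cultures is not in the labels, and p-values therefore cover the variation seen between 2 libraries a group, possibly of technical origin. Counts on transcripts summed to between 29318499 and 32435994 without rapamycin and to between 11441998 and 12685769 with it. Reads outside every annotated transcript made up 33.1% to 33.7% without rapamycin and 49.95% to 50.5% with it.

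With rapamycin, 8 of the 30 enzyme genes rose, 7 fell and 15 did not pass the test (edgeR's quasi-likelihood test at a threshold of 0.05 on p-values adjusted by Benjamini-Hochberg over all 5707 transcripts). In the same test 46.0% of all transcripts were called, with 19.3% of all transcripts higher and 26.7% lower, and the 15 of 30 enzyme genes called came near that background. The genes that rose were FBA1, ENO2, TDH3, RPE1, CDC19, GPM1, PGI1 and SOL3. Those that fell were TDH1, GPD1, GPD2, ENO1, ZWF1, TDH2 and HXK2. The TDH family and the ENO family of lower glycolysis each held members called in opposite directions. Of the 15 called genes, 9 differed by at least 2-fold, which is 9 of 30 against 24.6% of all transcripts. The median log2 fold change was 0.28 over the enzyme genes and -0.03 over all transcripts tested, with single genes between -2.46 (TDH1) and 1.87 (PDC6). In 21 of 30 genes (70.0%) both with rapa libraries lay on the same side of both no rapa libraries, against 74.2% of all transcripts. Levels are CPM, read counts relative to the TMM-scaled sum of counts on the transcripts tested. They are thus relative levels within the labelled RNA counted on those transcripts, and the TMM scaling sets them apart from plain shares of the counts. Reads outside every annotated transcript, a larger part of the with rapa libraries, are not in that sum. A gene that kept its output while most genes lost theirs cannot be told apart from a gene whose output rose.

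**Figure D1:**
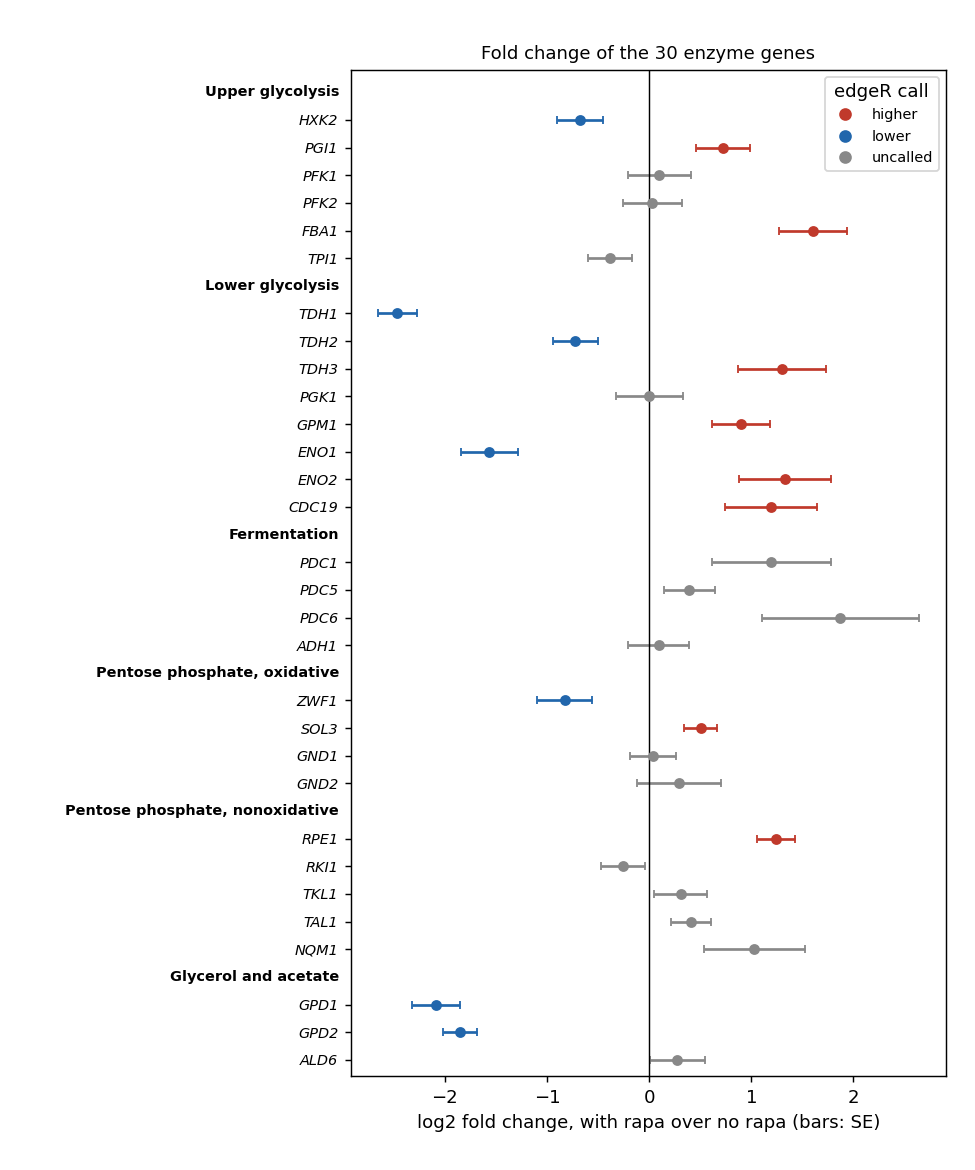
Log2 fold change of each of the 30 enzyme genes, with rapa over no rapa, on the horizontal axis, with genes in rows by role. Points are estimates from the edgeR fit, bars are 1 SE, and colours give the call. TDH1 and TDH2 lie left of 0 and TDH3 right of it, and ENO1 and ENO2 lie on opposite sides.

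The limits of these calls are common to the list. With either no rapa library left out, CDC19, ENO2, GPM1, HXK2, PGI1, SOL3 and TDH3 lost their call, and with replicate 1 left out TDH2 and ZWF1 lost it too. Without with rapa replicate 2, HXK2, TDH2 and ZWF1 lost their call. Over all transcripts, too, fewer were called with either no rapa library left out, and more with either with rapa library left out. Calls were thus gained and lost across the whole test and not in this list alone. TDH1, GPD1, GPD2, ENO1, FBA1 and RPE1 were called in the main test and under all 10 alternatives, and all 15 called genes kept their sign under all of them. Without with rapa replicate 1 the median over the enzyme genes was -0.01.

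Glyceraldehyde-3-phosphate dehydrogenase, the enzyme that takes the oxidation step of glycolysis, is made from TDH1, TDH2 and TDH3. Both minor isoenzyme genes fell and the major gene rose. The coding sequences are so alike that they are shown first, as the same 120 bases of each coding sequence of 999 bases. Capitals mark the bases that differ from TDH3 at the same position (R64 genome, RefSeq, read 5′ to 3′ along the gene).
TDH3, chrVII:883391-883510, minus strand: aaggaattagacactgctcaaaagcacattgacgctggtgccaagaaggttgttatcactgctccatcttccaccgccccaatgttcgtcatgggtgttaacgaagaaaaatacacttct
TDH2, chrX:454262-454381, minus strand: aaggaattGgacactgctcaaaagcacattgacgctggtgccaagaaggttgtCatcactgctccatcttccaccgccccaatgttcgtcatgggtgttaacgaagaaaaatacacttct
TDH1, chrX:338571-338690, plus strand: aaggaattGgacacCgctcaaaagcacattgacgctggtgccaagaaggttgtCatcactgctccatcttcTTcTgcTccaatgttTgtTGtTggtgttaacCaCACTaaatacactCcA
Over the whole coding sequence TDH2 differs from TDH3 at 42 positions and TDH1 at 111. The identity with TDH3 is 95.8% for TDH2 and 88.9% for TDH1. Of the 50-base stretches of each transcript, 87.1% occur once in the R64 genome for TDH1, 73.4% for TDH2 and 78.4% for TDH3. The deposited files list 0 reads as aligned to several places, so how reads from the shared stretches were handled is unknown, and the levels of the 3 genes are uncertain in that respect.

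TDH3, the major isoenzyme gene (YGR192C, chromosome VII, 882706 to 883849, R64), measured 6477 and 5434 CPM without rapamycin and 16866 and 12412 CPM with it. Both libraries with rapamycin were above both without it. The log2 fold change was 1.30 ± 0.43 (SE; 2.46-fold, adjusted p = 0.0271). TDH2 (YJR009C, chromosome X, 453545 to 454729) measured 737 and 637 CPM without rapamycin and 489 and 344 CPM with it, a log2 fold change of -0.72 ± 0.22 (adjusted p = 0.0187). TDH1 (YJL052W, chromosome X, 338197 to 339398), whose product is known from stationary-phase cells, measured 144 and 122 CPM without rapamycin and 22.6 and 25.6 CPM with it. That is a log2 fold change of -2.46 ± 0.19 (5.52-fold lower, adjusted p = 4.94e-06). Groups did not overlap for any of the 3. Without no rapa replicate 1 the adjusted p was 0.148 for TDH3 and 0.144 for TDH2, and without no rapa replicate 2 it was 0.234 for TDH3. The TDH2 call was also lost without with rapa replicate 2 (log2 fold change -0.40, adjusted p = 0.13).

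The make-up of the family was compared within each library, where depth and scaling drop out. Per kilobase of transcript, TDH3 made up 88.4% and 88.2% of the family's reads without rapamycin and 97.2% in each library with it. TDH2 went from 9.72% and 9.97% to 2.72% and 2.60%. TDH1 went from 1.87% and 1.89% to 0.124% and 0.191%. The log2 ratio of TDH1 to TDH3 reads shifted by -3.75, from -5.48 ± 0.01 to -9.23 ± 0.44 (SD, n = 2; 13.5-fold, exact permutation p = 0.333, two-sided). The ratio of TDH2 to TDH3 shifted by -2.03, from -3.11 ± 0.03 to -5.14 ± 0.05 (4.08-fold, exact permutation p = 0.333, n = 2). The log2 ratio of TDH1 to TDH2 shifted by -1.72, from -2.37 ± 0.02 to -4.09 ± 0.49 (exact permutation p = 0.333, n = 2). The shift was larger than the SD of either group in each case, yet with 2 libraries against 2 no permutation test can go below 0.333. Over the 10 isoenzyme pairs tested, the Benjamini-Hochberg adjusted p was 0.417 for each of the 8 pairs whose groups did not overlap.

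Enolase, which removes water to form phosphoenolpyruvate, showed the same opposition between ENO1 and ENO2. ENO2 is the copy induced by glucose. The same 120 bases of both coding sequences, which have 1314 bases, show how they differ, with capitals where ENO1 differs from ENO2.
ENO2, chrVIII:451627-451746, plus strand: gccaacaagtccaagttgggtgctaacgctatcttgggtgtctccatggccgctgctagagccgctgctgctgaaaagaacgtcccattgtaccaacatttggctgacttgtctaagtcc
ENO1, chrVII:1001227-1001346, plus strand: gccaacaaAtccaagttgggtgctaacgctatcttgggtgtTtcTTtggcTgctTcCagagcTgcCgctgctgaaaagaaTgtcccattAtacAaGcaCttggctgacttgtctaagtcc
There are 68 such positions in the whole coding sequence, 14 of them in this stretch, and the identity is 94.8%. ENO2 (YHR174W, chromosome VIII, 451297 to 452773) measured 6215 and 5088 CPM without rapamycin and 18171 and 10303 CPM with it, a log2 fold change of 1.33 ± 0.45 (2.52-fold, adjusted p = 0.0291). ENO1 (YGR254W, chromosome VII, 1000890 to 1002388) measured 866 and 790 CPM without rapamycin and 370 and 190 CPM with it, a log2 fold change of -1.57 ± 0.28 (2.96-fold lower, adjusted p = 7.5e-04). In both genes the groups did not overlap, and in both the library with rapa replicate 1 was the higher of its pair. Per kilobase, ENO1 made up 12.1% and 13.3% of the family's reads without rapamycin and 1.97% and 1.78% with it. The log2 ratio of ENO1 to ENO2 shifted by -2.92, from -2.77 ± 0.11 to -5.69 ± 0.10 (SD, n = 2; 7.60-fold, exact permutation p = 0.333). ENO2 did not pass with no rapa replicate 1 left out (adjusted p = 0.134) or with no rapa replicate 2 left out (0.228). Of the 50-base stretches, 79.3% of those of ENO1 and 79.0% of those of ENO2 occur once in the genome.

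**Figure D2:**
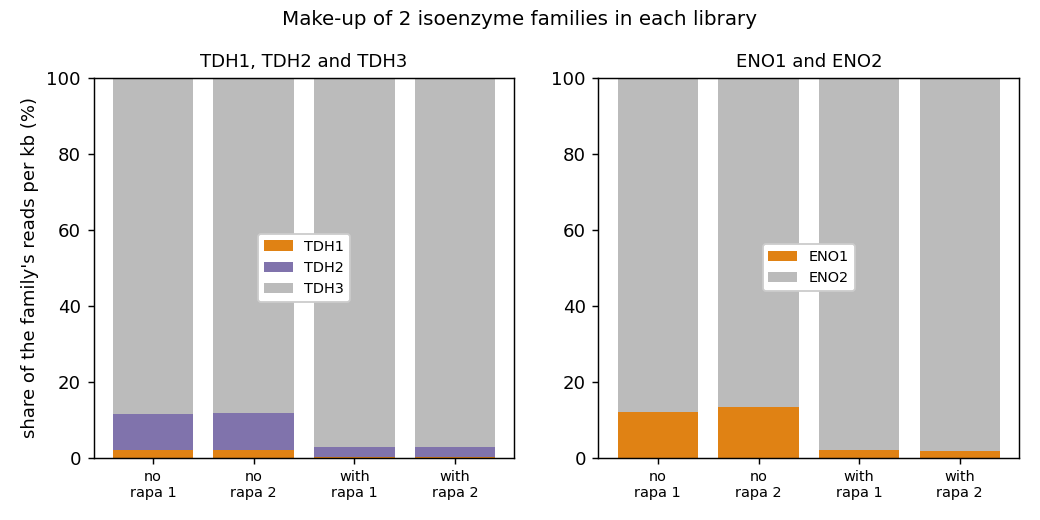
Share of each family's reads per kilobase of transcript (vertical axis, percent) that fell on each isoenzyme gene, in each of the 4 libraries. TDH3 makes up 88.2% to 88.4% of its family without rapamycin and 97.2% with it, and ENO1 shrinks from 12.1% and 13.3% to 1.97% and 1.78% of its own.

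The promoters of the 3 TDH genes and of ENO1 are printed because the TDH transcripts moved in opposite directions and ENO1 fell with TDH1 and TDH2. Each line gives the 250 bases before the annotated transcript start on the gene's strand (R64 genome, RefSeq), so it holds no transcribed leader as annotated, and capitals mark TATAAA on either strand, the core of a TATA box.
TDH1, chrX:337947-338196, plus strand: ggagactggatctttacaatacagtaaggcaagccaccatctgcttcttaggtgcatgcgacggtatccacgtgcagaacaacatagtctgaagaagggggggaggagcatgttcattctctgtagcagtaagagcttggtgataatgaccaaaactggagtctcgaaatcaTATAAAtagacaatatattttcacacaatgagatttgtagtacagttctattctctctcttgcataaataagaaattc
TDH2, chrX:454730-454979, minus strand: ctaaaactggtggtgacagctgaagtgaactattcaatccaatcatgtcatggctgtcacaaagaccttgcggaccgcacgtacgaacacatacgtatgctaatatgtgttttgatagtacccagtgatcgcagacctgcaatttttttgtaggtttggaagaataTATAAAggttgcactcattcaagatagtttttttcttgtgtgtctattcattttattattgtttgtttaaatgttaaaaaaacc
TDH3, chrVII:883850-884099, minus strand: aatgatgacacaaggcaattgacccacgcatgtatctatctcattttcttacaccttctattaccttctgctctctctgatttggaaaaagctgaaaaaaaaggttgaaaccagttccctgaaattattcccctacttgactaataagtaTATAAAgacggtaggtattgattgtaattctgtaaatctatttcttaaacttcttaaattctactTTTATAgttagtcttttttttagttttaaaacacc
ENO1, chrVII:1000640-1000889, plus strand: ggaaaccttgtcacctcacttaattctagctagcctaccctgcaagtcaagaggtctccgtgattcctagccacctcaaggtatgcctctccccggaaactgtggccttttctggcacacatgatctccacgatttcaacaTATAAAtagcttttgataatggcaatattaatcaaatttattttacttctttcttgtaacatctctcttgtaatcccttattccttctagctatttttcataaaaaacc
All 4 windows hold TATAAA on the gene's strand, its first base lying 78 (TDH1), 84 (TDH2), 100 (TDH3) and 109 (ENO1) bases before the annotated start. TDH3 has a further match on the opposite strand. The letters were thus present in the 3 genes that fell and in TDH3, which rose.

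Motifs were counted on both strands before the annotated start of every open reading frame transcript. TATAAA was found within 200 bases in 20 of the 30 enzyme genes, against 36.0% of 4928 open reading frame transcripts. It was found in 5 of the 8 genes that rose, in 5 of the 7 that fell and in 10 of the 15 that did not pass. CTTCC, the core bound by Gcr1, was found within 500 bases in 21 of 30, against 66.3% of all. By call, that was 6 of the 8 genes that rose, 6 of the 7 that fell and 9 of the 15 that did not pass. A Rap1 consensus was found within 500 bases in 4 of 30, against 2.39% of all. It was found in 2 of the 8 genes that rose, 1 of the 7 that fell and 1 of the 15 that did not pass. AGGGG, the stress response element bound by Msn2 and Msn4, was found within 500 bases in 19 of 30, against 34.8% of all, and in 2 of the 8 genes that rose, 5 of the 7 that fell and 12 of the 15 that did not pass. None of these motifs contains another. These matches describe the sequence and were not tested against the fold changes.

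Pyruvate decarboxylase, which commits pyruvate to fermentation, is made from PDC1, PDC5 and PDC6. PDC1, the major gene (YLR044C, chromosome XII, 232313 to 234111), had the highest level of the 30 and measured 17499 and 11508 CPM without rapamycin and 43916 and 22621 CPM with it. The groups did not overlap, yet the 2 libraries of each group were far apart, and the log2 fold change of 1.20 ± 0.58 did not pass (adjusted p = 0.11). PDC5 measured 92.4 and 57.8 CPM without rapamycin and 120 and 77.5 CPM with it (0.39 ± 0.25, adjusted p = 0.211), and its groups overlapped. The log2 ratio of PDC5 to PDC1 shifted by -0.75, from -7.60 ± 0.05 to -8.35 ± 0.23 (SD, n = 2; exact permutation p = 0.333). PDC6, which has a low level in glucose, had 35 and 59 reads without rapamycin and 21 and 136 with it. Its levels were 1.16 and 2.01 CPM against 1.90 and 9.65 CPM, so its log2 fold change of 1.87 ± 0.77 (adjusted p = 0.0640) rested on with rapa replicate 2 and was 0.35 without that library. PDC1 passed without with rapa replicate 2 (1.69, adjusted p = 6.51e-04), PDC5 without that library (0.77, 2.9e-04) or without no rapa replicate 1 (0.76, 0.0480), and PDC6 without with rapa replicate 1 (2.57, 1.66e-07). In the other direction, without with rapa replicate 1 PDC1 measured 0.61 (adjusted p = 0.207) and PDC5 0.0167 (0.951), and without no rapa replicate 2 PDC5 measured 0.082 (0.856).

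6-phosphogluconate dehydrogenase and transaldolase each have a major and a minor gene. GND1, the major gene of the former, measured 1091 and 982 CPM without rapamycin and 1132 and 1001 CPM with it (0.04 ± 0.23, adjusted p = 0.901). GND2 measured 7.71 and 6.73 CPM without rapamycin and 8.95 and 8.73 CPM with it (0.29 ± 0.41, 0.588). Neither passed the test. TAL1, the major transaldolase gene, measured 418 and 335 CPM without rapamycin and 497 and 504 CPM with it (0.41 ± 0.19, 0.0993). NQM1, its paralog, measured 4.28 and 3.47 CPM without rapamycin and 6.87 and 8.94 CPM with it (1.03 ± 0.49, 0.107). For both genes the libraries with rapamycin lay above those without it, though neither passed. TAL1 measured 0.25 without no rapa replicate 2 (adjusted p = 0.588), and passed without with rapa replicate 2 (0.50, adjusted p = 0.0265) and NQM1 without with rapa replicate 1 (1.17, 0.0100). The log2 ratio of GND2 to GND1 shifted by 0.26 and that of NQM1 to TAL1 by 0.60. Each gave an exact permutation p of 0.333 (n = 2), the lowest possible with 2 libraries against 2. Both ratios were higher in each with rapa library than in either no rapa library. The minor genes had low counts, 232 and 198 (no rapa) against 99 and 123 (with rapa) for GND2. For NQM1 the counts were 129 and 102 (no rapa) against 76 and 126 (with rapa). A gain in share of the minor gene was therefore not established for either pair.

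The 2 glycerol-3-phosphate dehydrogenase genes fell together. This enzyme draws dihydroxyacetone phosphate away from glycolysis to make glycerol, and GPD1 responds to high osmolarity whereas GPD2 responds to lack of oxygen. GPD1 (YDL022W, chromosome IV, 411760 to 413156) measured 340 and 276 CPM without rapamycin and 91.9 and 53.7 CPM with it, a log2 fold change of -2.09 ± 0.24 (4.24-fold lower, adjusted p = 3.59e-05). GPD2 (YOL059W, chromosome XV, 217122 to 218695) measured 333 and 319 CPM without rapamycin and 92.6 and 88.2 CPM with it, a log2 fold change of -1.85 ± 0.17 (3.61-fold lower, 8.92e-06). Both sets of libraries were clearly apart for each gene. The log2 ratio of GPD1 to GPD2 went from -0.09 ± 0.17 to -0.36 ± 0.50 (SD, n = 2), and its groups overlapped (exact permutation p = 0.667, adjusted p = 0.741 over 10 pairs). ALD6, the cytosolic acetaldehyde dehydrogenase gene that also yields NADPH, measured 1461 and 1526 CPM without rapamycin and 2131 and 1485 CPM with it (0.28 ± 0.27, 0.427). Without with rapa replicate 2 it passed (0.61, adjusted p = 0.0422), and without with rapa replicate 1 it measured -0.0398 (0.908).

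**Figure D3:**
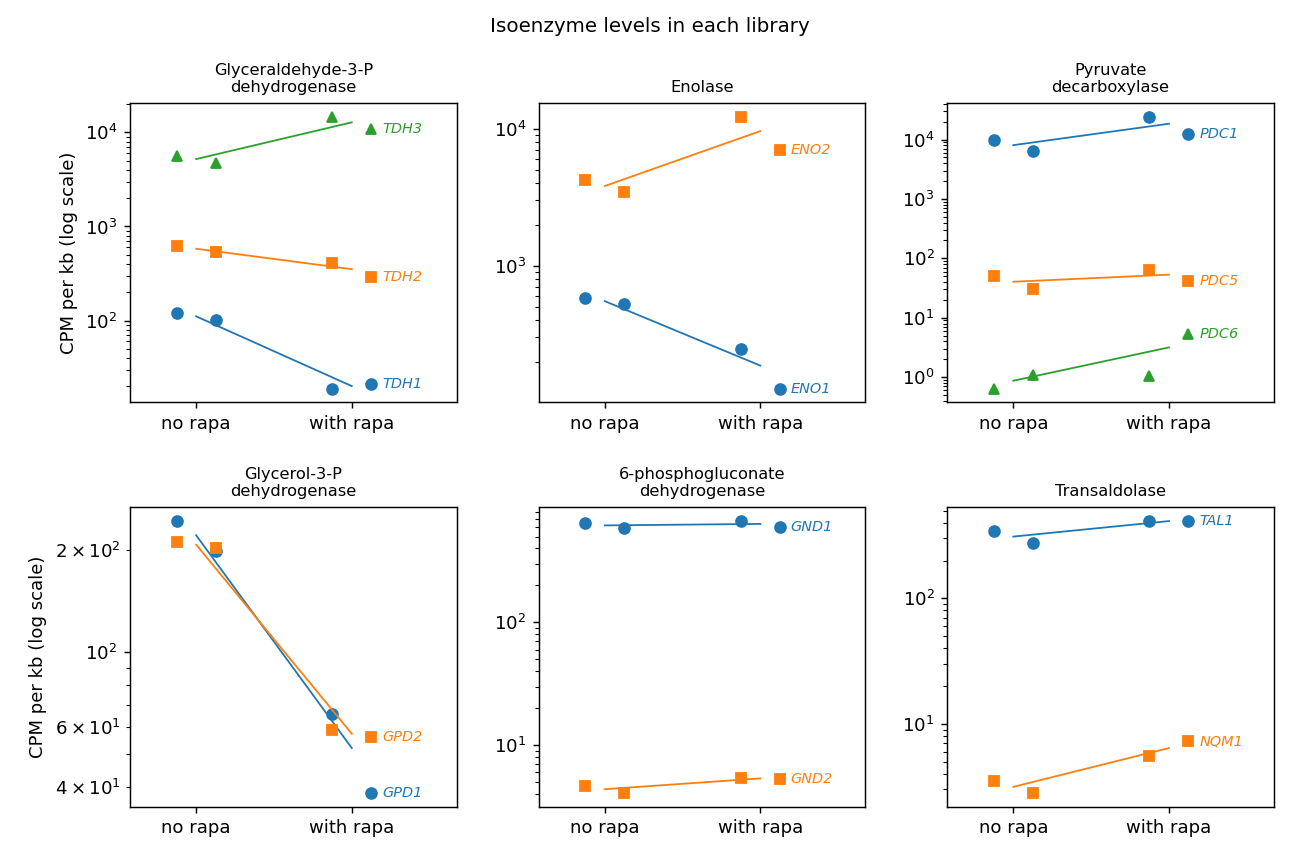
Level in each library of the genes of 6 isoenzyme families, as TMM-scaled CPM per kilobase of transcript on a log axis. In each group replicate 1 is on the left and replicate 2 on the right, and lines join the group means of a gene. TDH1 and ENO1 slope down while TDH3 and ENO2 slope up, and GPD1 and GPD2 slope down together.

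Upper glycolysis, from hexokinase to triosephosphate isomerase, had 6 measured genes, of which 2 rose, 1 fell and 3 did not pass, so 3 of 6 were called against 46.0% of all transcripts. FBA1, which encodes fructose-bisphosphate aldolase (YKL060C, chromosome XI, 326356 to 327511), measured 2051 and 1703 CPM without rapamycin and 6351 and 5071 CPM with it. Its log2 fold change of 1.61 ± 0.33 (3.04-fold, adjusted p = 0.00187) was the largest of the 8 genes that rose. PGI1, the phosphoglucose isomerase gene, measured 1380 and 1069 CPM without rapamycin and 2169 and 1863 CPM with it (0.72 ± 0.26, 0.0411). HXK2, the main hexokinase gene in glucose, whose product also takes part in glucose repression, fell from 1315 and 1192 CPM to 819 and 751 CPM (-0.68 ± 0.22, 0.0270). The 2 subunit genes of phosphofructokinase, the most regulated step, were near equal in level per kilobase and their groups overlapped. PFK1 measured 2797 and 2004 CPM without rapamycin and 2958 and 2194 CPM with it (0.10 ± 0.31, 0.809). PFK2 measured 2183 and 1648 CPM without rapamycin and 2279 and 1639 CPM with it (0.03 ± 0.29, 0.94). PFK1 made up 51.9% to 54.3% of the pair's reads per kilobase in all 4 libraries, and the log2 ratio of PFK2 to PFK1 shifted by -0.08 (exact permutation p = 0.333, n = 2). TPI1, the triosephosphate isomerase gene, measured 970 and 780 CPM against 664 and 678 CPM (-0.38 ± 0.22, 0.165). Without no rapa replicate 1 or 2, PGI1 had an adjusted p of 0.118 or 0.370 and HXK2 of 0.199 or 0.101, and without with rapa replicate 2 HXK2 had 0.0712.

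Below the dehydrogenase, the phosphoglycerate kinase gene PGK1 did not pass, while the phosphoglycerate mutase gene GPM1 and the pyruvate kinase gene CDC19 rose. PGK1, the kinase gene, measured 2996 and 1871 CPM without rapamycin and 2877 and 2001 CPM with it (0.00 ± 0.32, adjusted p = 0.995), and its groups overlapped. GPM1, the mutase gene, measured 1646 and 1274 CPM without rapamycin and 3054 and 2389 CPM with it (0.90 ± 0.29, 0.0219). CDC19, the pyruvate kinase gene of glucose-grown cells (YAL038W, chromosome I, 71759 to 73452), measured 7709 and 6109 CPM without rapamycin and 18735 and 12817 CPM with it (1.19 ± 0.45, 0.0464). In GPM1 and CDC19 the groups did not overlap. Of their paralogs among the other pathway genes, none was called higher in the same test. PYK2 (-0.99 ± 0.21, adjusted p = 0.00256) and GPM3 (-0.63 ± 0.20, 0.0201) fell. GPM2 (1.30 ± 0.61, 0.100) did not pass, though its groups did not overlap. It measured 2.89 and 1.70 CPM without rapamycin and 4.16 and 7.09 CPM with it. ADH1, the alcohol dehydrogenase gene that completes fermentation, measured 1955 and 1681 CPM without rapamycin and 2415 and 1472 CPM with it (0.10 ± 0.30, 0.815). Over all of lower glycolysis, 4 genes rose, 3 fell and 1 did not pass, against 19.3% of all transcripts higher and 26.7% lower. None of the 4 fermentation genes passed (edgeR), against 46.0% of all transcripts called, and the difference between these small groups was not tested. Of those 4, 1 had an unadjusted p under 0.05, and DESeq2 called 2, PDC1 and PDC6. Without no rapa replicate 1 or 2, GPM1 had an adjusted p of 0.0819 or 0.261 and CDC19 of 0.179 or 0.312.

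The oxidative arm of the pentose phosphate pathway went both ways. ZWF1, which encodes its first enzyme, glucose-6-phosphate dehydrogenase (YNL241C, chromosome XIV, 196228 to 198002), measured 1938 and 1518 CPM without rapamycin and 1142 and 806 CPM with it, a log2 fold change of -0.83 ± 0.27 (1.77-fold lower, adjusted p = 0.0244). SOL3, the 6-phosphogluconolactonase gene, rose from 126 and 116 CPM to 166 and 177 CPM (0.50 ± 0.16, 0.0215). In the nonoxidative arm, RPE1, which encodes ribulose-phosphate epimerase (YJL121C, chromosome X, 190309 to 191130), rose from 42.6 and 47.9 CPM to 121 and 93.8 CPM, a log2 fold change of 1.24 ± 0.19 (2.37-fold, 2.42e-04). The groups of these 3 genes did not overlap. RKI1, the ribose-5-phosphate ketol-isomerase gene, measured 39.6 and 36.5 CPM against 30.8 and 32.9 CPM (-0.26 ± 0.21, 0.342). TKL1, the major transketolase gene, measured 1566 and 1185 CPM against 1865 and 1541 CPM (0.31 ± 0.26, 0.359). ZWF1 lost its call without no rapa replicate 1 (-0.65, adjusted p = 0.206) and without with rapa replicate 2 (-0.50, 0.105), and SOL3 without no rapa replicate 1 (0.119) or 2 (0.235).

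Per kilobase of transcript and without rapamycin, the order of levels was led by PDC1 (9727 and 6397 CPM per kb), TDH3 (5662 and 4750), CDC19 (4551 and 3606) and ENO2 (4208 and 3445). CDC19 and ENO2 overlapped, whereas PDC1 and TDH3 were each apart from the next gene. With rapamycin PDC1, TDH3, ENO2 and CDC19 led again, and each overlapped the next in that order. At the other end PDC6, NQM1 and GND2 were below 5 CPM per kb without rapamycin. TDH1 went from rank 24 to rank 27 of 30 and ENO1 from rank 19 to rank 21.

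The 30 genes together took 5.98% and 4.95% of all transcript counts without rapamycin and 12.5% and 9.18% with it, a mean of 5.46% ± 0.73 against 10.9% ± 2.36 (SD, n = 2; exact permutation p = 0.333). PDC1, TDH3, CDC19 and ENO2, chosen after their values were seen, took 3.52% and 2.82% without rapamycin and 9.44% and 6.46% with it. The other 26 genes took 2.46% and 2.12% without rapamycin and 3.08% and 2.72% with it. Most of the added share thus lay on 4 genes. Replicate 1 was above replicate 2 in 27 of the 30 genes without rapamycin (median ratio 1.21) and in 23 with it (median ratio 1.28). The part of that difference between libraries in the fold changes was not tested. Across the 30 genes, log2 fold change and log2 level per kilobase without rapamycin had a Pearson's r of -0.003 and a Spearman's rho of 0.20, and with transcript length r was -0.01 and rho -0.03. These points share the same 4 libraries, and the fold change and the level share the no rapa libraries.

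**Figure D4:**
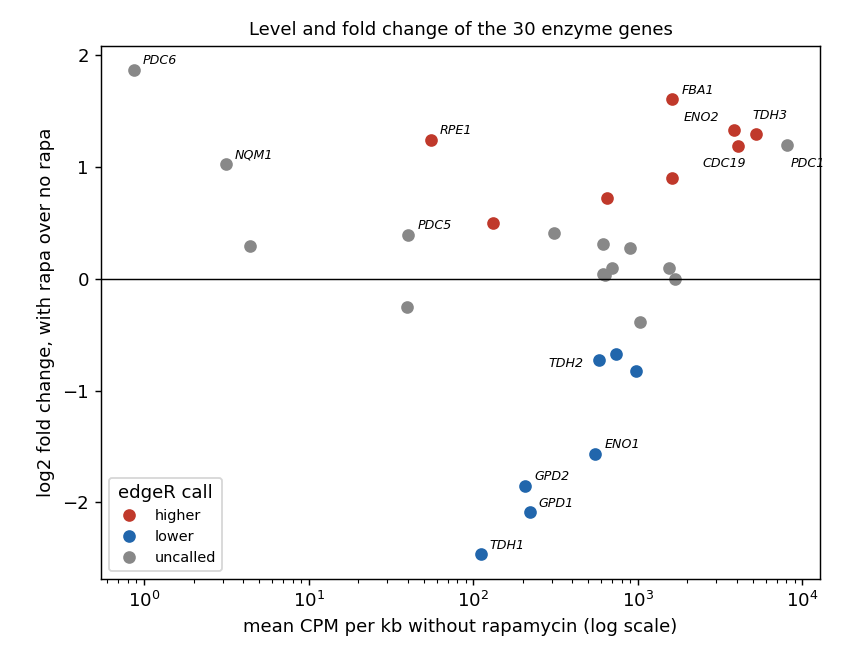
Log2 fold change (vertical axis) against mean CPM per kilobase without rapamycin (horizontal log axis) for the 30 enzyme genes, coloured by call. PDC1, TDH3, CDC19 and ENO2 sit together at the upper right with log2 fold changes of 1.19 to 1.33, and TDH1, GPD1, GPD2 and ENO1 sit lowest, at middle levels.

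The other genes of these pathways were taken from a list of 32 chosen by pathway, 27 of which had a row. They comprised regulators, the enzymes of fructose 2,6-bisphosphate, further enzymes and those of acetate and glycerol. Of the 27, 3 rose, 11 fell and 13 did not pass, with a median log2 fold change of -0.25, so 51.9% were called against 46.0% of all transcripts. Of the regulators, GCR1, which encodes the main activator of glycolytic genes, measured 573 and 576 CPM without rapamycin and 155 and 147 CPM with it (-1.93 ± 0.18, adjusted p = 1.1e-05). TYE7, another activator of glycolytic genes, measured 418 and 449 CPM against 131 and 122 CPM (-1.78 ± 0.17, 1.37e-05). REB1, a general promoter-binding factor, measured 771 and 635 CPM against 353 and 271 CPM (-1.17 ± 0.21, 8.43e-04). RAP1 measured 171 and 171 CPM against 157 and 153 CPM (-0.14 ± 0.16, 0.482) and STB5, an activator of pentose phosphate genes, 59.9 and 60.9 CPM against 64.9 and 48.1 CPM (-0.10 ± 0.20, 0.712), and neither passed.

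Of the enzymes that make or break fructose 2,6-bisphosphate, the activator of phosphofructokinase, PFK27 fell from 438 and 508 CPM to 152 and 128 CPM (-1.76 ± 0.19, adjusted p = 2.2e-05) and PFK26 fell by 0.62 ± 0.18 on the log2 scale (0.0158). Among further enzymes, ADH2, the alcohol dehydrogenase gene that glucose represses and that serves ethanol use, rose most. It had 18 and 25 reads without rapamycin and 265 and 385 with it, or 0.60 and 0.85 CPM against 24.0 and 27.3 CPM (5.14 ± 0.42, 35.2-fold, 6.13e-06). Its coding sequence is 88.8% identical to that of ADH1, and 87.7% of its 50-base stretches occur once in the genome. SHB17, which encodes sedoheptulose bisphosphatase at the entry to riboneogenesis, rose from 156 and 195 CPM to 441 and 335 CPM (1.14 ± 0.20, 6.13e-04). EMI2, a hexokinase-family gene, fell from 131 and 81.7 CPM to 58.8 and 39.1 CPM (2.18-fold lower, 0.00314), and SFA1, a bifunctional alcohol and formaldehyde dehydrogenase gene, from 720 and 831 CPM to 334 and 310 CPM (2.41-fold lower, 3.15e-04). GPP1, which encodes the phosphatase that follows GPD1 and GPD2 in glycerol synthesis, fell from 602 and 569 CPM to 256 and 216 CPM (-1.31 ± 0.19, 1.7e-04). Both steps of that branch therefore held genes that fell, while GPP2, the second phosphatase gene, measured 43.0 and 40.0 CPM against 31.6 and 41.0 CPM and did not pass (0.490).

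**Figure D5:**
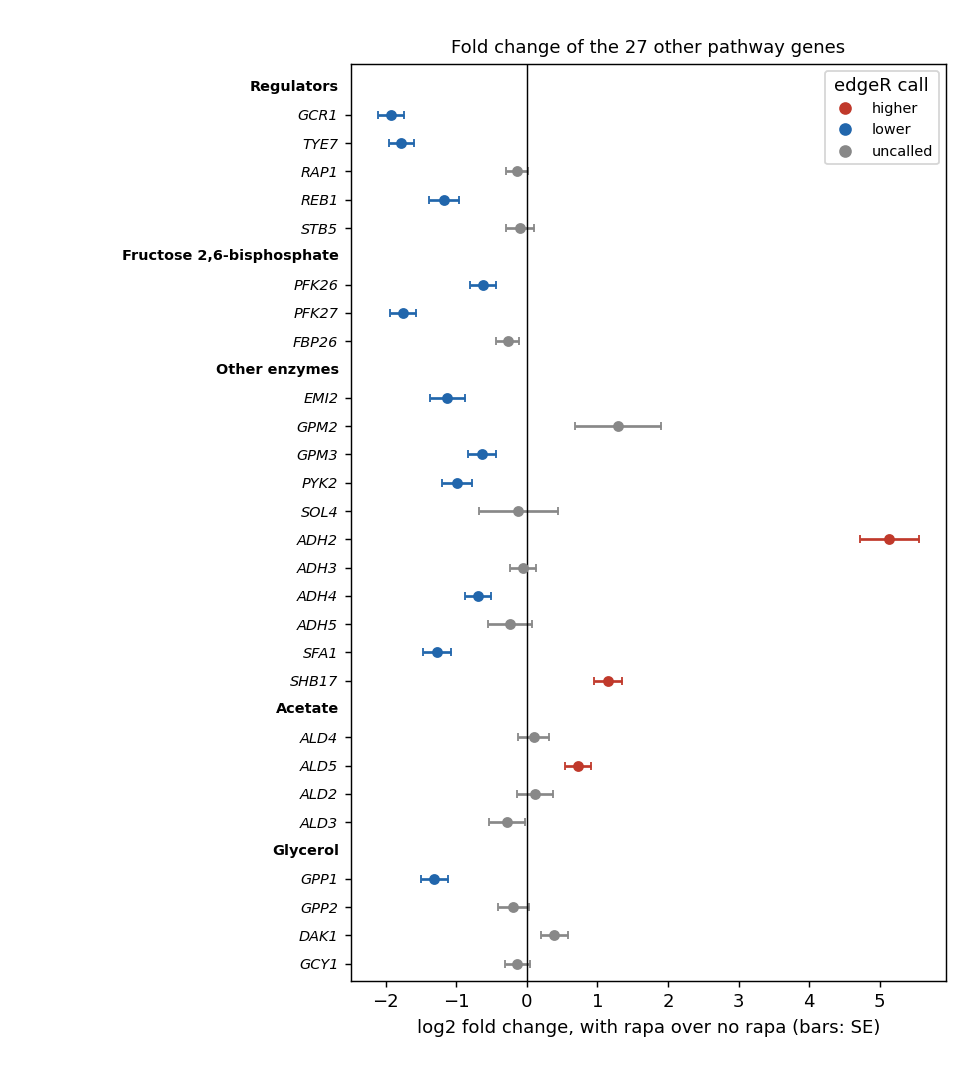
Log2 fold change of the 27 other pathway genes, with rapa over no rapa, on the horizontal axis, with genes in rows by role. Points are estimates from the edgeR fit, bars are 1 SE, and colours give the call. ADH2 stands at 5.14, and GCR1, TYE7 and PFK27 lie near the left edge at -1.93, -1.78 and -1.76.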

How the data were processed

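Labelled RNA was measured in 2 no rapa and 2 with rapa libraries. The authors deposited raw read counts per annotated transcript, with the annotation. The smaller group of a fit with 1 library left out holds 1 library, which is assumed to vary like the others. STAR (2.3.0), HTSeq and SAMtools, and R64 and sacCer3 as builds, are named without role or order per the submitters' processing notes. The handling of reads with several positions and the strand setting are not given in the sources used here. All 4842 open reading frames with a name in the R64 annotation lay inside their deposited transcript. Rows naming no feature, 33.1% to 50.5% of reads as no feature and at most 0.0930% as ambiguous, were left out. Replicates differed beyond sampling noise (chi-square per degree of freedom 82.3 without and 66.6 with rapamycin).

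The test was that of edgeR 4.0.16 under R 4.3.3 (filterByExpr, TMM, quasi-likelihood F-test, two-sided, Benjamini-Hochberg over 5707 transcripts, threshold 0.05). The SE is the absolute log2 fold change over the square root of F. TMM factors were 0.928, 1.00, 0.966 and 1.11, and the common biological coefficient of variation 19.8%. The test was first checked on counts simulated with a common dispersion for all genes, a simpler setting than these data. No call above rests on that check. Isoenzyme ratios used counts within a library and exact permutation tests. Sequences were read with Biopython 1.88. Of the promoter sequences, 1 is not reported here.

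The members, lists and pairs were chosen with earlier results of these data known. Every member is named, with values in each library for paired genes and for called genes of at least 2-fold, and other pathway genes are named with values where called at that fold. RAP1, STB5, PFK26, GPP2, PYK2, GPM2, GPM3 and ALB1 were named after their values were seen. Alternatives were RLE and upper-quartile scaling, DESeq2 1.42.0, no filter, open reading frames alone, each library left out and a replicate block.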

Additional observations from a re-analysis of the deposited data

Results flagged for a closer look

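Reads outside every annotated transcript, which enter no comparison above, made up 50.45% of reads in with rapa replicate 1 and 49.95% in with rapa replicate 2, above the 33.7% and 33.1% of the no rapa libraries. In with rapa replicate 2 the deposited counts inside and outside transcripts were almost equal, 12685769 and 12685766, and whether that arose by chance could not be settled from the files. The positions of the reads outside transcripts were not analysed here.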

How the results depend on the processing

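Upper-quartile scaling raised the median log2 fold change of all transcripts from -0.03 to 0.28 and of the enzyme genes from 0.28 to 0.60, so the difference was 0.312 against 0.316. With it 14 enzyme genes were called higher and 4 lower, against 8 and 7, while 2667 transcripts in all were called against 2623. HXK2, TDH2 and ZWF1 lost their calls, and ALD6, PDC1, PDC5, PDC6, TAL1 and TKL1 gained one. With 1 library left out, the calls were 2 to 12 higher and 4 to 7 lower, and the median -0.0116 to 0.45. For the other pathway genes every alternative gave counts within 1.5 times. With the replicate number as a block, 11 enzyme genes were called higher and 7 lower. All 15 of the main test were among them, and PDC1, PDC5 and TAL1 were added. Over all transcripts the block called 2970, against 2623 in the main test. Numbers in the labels give no shared origin, and the deviations of same-numbered libraries correlated at 0.233 over transcripts, from 2 pairs only. DESeq2 added PDC1, PDC6 and TAL1, and called 2541 of all transcripts. PDC6 also passed with RLE scaling, and PDC6 and TAL1 with open reading frames alone. With RLE scaling CDC19, HXK2 and ZWF1 lost their calls. The direction turned for RKI1 with upper-quartile scaling (0.0651) and PGK1 with no filter (-0.0199), both uncalled. With 1 library left out, the ranges were -0.34 to 0.50 for ADH1, -0.0398 to 0.61 for ALD6, -0.0812 to 0.22 for GND1, -0.16 to 0.40 for PFK1, -0.25 to 0.35 for PFK2 and -0.31 to 0.37 for PGK1. The shift of GPD1 over GPD2 ranged from -0.63 to 0.0766 and that of PDC6 over PDC1 from -1.32 to 1.99, and the cause was not tested.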

Other observations

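Of the 30 enzyme genes, 11 overlap another annotated transcript, with 12 partners in all, and 11 of these partners lie on the opposite strand. Of the partners, 1 rose (edgeR), 2 fell, 7 did not pass and 2 were not tested, where 46.0% of all transcripts were called. YDR048C, which overlaps TPI1 on the same strand, measured 3.75 and 6.56 CPM without rapamycin and 22.0 and 35.9 CPM with it, a log2 fold change of 2.49 ± 0.38 (adjusted p = 2.35e-04), while TPI1 measured -0.38. BUD8, which lies antisense to TAL1, went from 87.8 and 115 CPM to 45.0 and 46.0 CPM (-1.15 ± 0.19, 4.27e-04), while TAL1 measured 0.41. MTM1, antisense to GND2, went from 67.8 and 62.6 CPM to 45.3 and 41.4 CPM (-0.59 ± 0.19, 0.0210), while GND2 measured 0.29. MTM1 had a higher level than GND2, which measured 7.71 and 6.73 CPM without rapamycin, in all 4 libraries. ALB1, antisense to RPE1, did not pass (0.36 ± 0.20, 0.164) but was near RPE1 in level without rapamycin. There ALB1 measured 46.0 and 61.25 CPM and RPE1 42.6 and 47.9 CPM. With rapamycin ALB1 measured 74.3 and 63.0 CPM and RPE1 121 and 93.8 CPM. The strand setting of the counting was not given, and the part of these partners in the members' values was not tested.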
